A study of Mus musculus with 9 samples.

Results

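Lamp2 and 7 genes whose products work with it in chaperone-mediated autophagy were followed in D3 mouse embryonic stem (ES) cells. The genes are Lamp2, Hspa8, Ctsa, Stub1, Bag1, Dnajb1, Rara and Eef1a1, taken by symbol for their known roles in the pathway. They are 8 of the 24421 genes in the count table, and all 8 were among the 14513 genes with enough counts to test. RNA was sequenced from 3 groups of 3 libraries. The VT group carried a stably expressed pCDH control vector, the LAMP2A group overexpressed LAMP2A, and the LAMP2A+DM-αKG group overexpressed LAMP2A and was also given DM-αKG, a cell-permeable form of α-ketoglutarate, at 4 mM for 72 h. The cells of all groups were kept on gelatin without a feeder layer, in serum and ESGRO (leukaemia inhibitory factor). The LAMP2A+DM-αKG group is also called the treated cells below. The labels do not say whether each line is 1 clone or a pool, whether its 3 libraries are separate cultures, or from which species the LAMP2A sequence was taken. The p-values therefore cover only the spread among the libraries, which may be technical. Vector cells given DM-αKG were not analysed here, so the response to DM-αKG was measured in LAMP2A-overexpressing cells alone.

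In chaperone-mediated autophagy, the constitutive heat shock protein HSC70 (encoded by Hspa8) recognises a short KFERQ-like motif in a cytosolic protein and carries that protein to the lysosome. There it binds the cytosolic tail of LAMP2A, one of the spliced forms of Lamp2, which assembles into a complex through which the unfolded protein enters the lysosome. The amount of LAMP2A at the lysosomal membrane limits the pathway. Cathepsin A (Ctsa) cleaves LAMP2A and sets its turnover, co-chaperones of HSC70 (Dnajb1, Stub1, Bag1) take part in handling its clients, retinoic acid receptor alpha (Rara) restrains the pathway by transcription, and EF1α (Eef1a1) acts at the lysosomal membrane on the stability of the LAMP2A complex.

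Mouse Lamp2 (GRCm38, chrX:38401357-38456454, minus strand) has 3 forms that share 8 coding exons of 1108 bases and end in different last coding exons, each of which encodes a transmembrane stretch and a cytosolic tail. The coding parts of these 3 exons are printed because only the tail of LAMP2A serves as the receptor of this pathway. They come from the GENCODE M21 transcripts of GRCm38, read 5′ to 3′ on the minus strand, and lie at chrX:38405435-38405571 for LAMP2A, chrX:38421715-38421851 for LAMP2B and chrX:38402142-38402281 for LAMP2C. Capitals mark the last 11 codons (33 bases) before the stop codon.
LAMP2A: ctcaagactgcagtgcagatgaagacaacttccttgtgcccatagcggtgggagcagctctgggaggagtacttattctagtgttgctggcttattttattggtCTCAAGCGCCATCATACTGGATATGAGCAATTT
LAMP2B: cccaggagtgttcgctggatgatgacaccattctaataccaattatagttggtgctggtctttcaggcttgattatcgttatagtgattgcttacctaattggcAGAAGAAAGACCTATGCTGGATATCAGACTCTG
LAMP2C: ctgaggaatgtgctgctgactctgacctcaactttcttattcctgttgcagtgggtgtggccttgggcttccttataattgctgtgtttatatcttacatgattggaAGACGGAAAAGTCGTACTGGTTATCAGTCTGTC
Over these 33 bases LAMP2A matches LAMP2B at 14 positions (42.4%) and LAMP2C at 15 (45.5%), while LAMP2B and LAMP2C match at 21 (63.6%). The coding part of the exon distinct to LAMP2A is 137 bases long and makes up 11.0% of the coding sequence of LAMP2A. The deposited counts are per gene, so neither the 3 forms nor the introduced and the endogenous copies can be told apart in the Lamp2 values that follow.

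Lamp2, the targeted gene, was higher in the 6 libraries labelled as overexpressing LAMP2A than in the 3 VT libraries, but by unequal amounts. Levels are given as CPM, the counts scaled to a common library size with edgeR's TMM factors. Lamp2 stood at 57.5, 56.9 and 60.0 CPM in the VT libraries, at 407, 403 and 403 CPM in the LAMP2A libraries and at 99.3, 95.3 and 96.9 CPM in the LAMP2A+DM-αKG libraries. The 3 groups did not overlap, and the DM-αKG-treated cells lay between the others, much nearer to VT than to LAMP2A although their label gives the same overexpression. Whether the introduced or the endogenous copy was lower in them cannot be told apart. Among all genes ordered by CPM, Lamp2 took places 4142 to 4321 across the VT libraries, rose to places 356 to 361 with overexpression, and stood at 2567 to 2691 in the treated cells. Its log2 fold change was 2.80 (SE 0.033, adjusted p = 1.93e-38) in LAMP2A over VT. The change with DM-αKG was -2.06 (SE 0.031, adjusted p = 3.51e-35), and the DM-αKG-treated cells kept a level 0.74 above VT on the log2 scale (SE 0.035, adjusted p = 4.31e-19). By size of change, Lamp2 ranked 1176 of 14513 genes in LAMP2A against VT, 1581 in LAMP2A+DM-αKG against LAMP2A and 1893 in LAMP2A+DM-αKG against VT. These tests are edgeR quasi-likelihood tests with Benjamini-Hochberg adjustment over all 14513 genes, as for every gene below, and a gene is called changed at an adjusted p under 0.05.

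**Figure D1:**
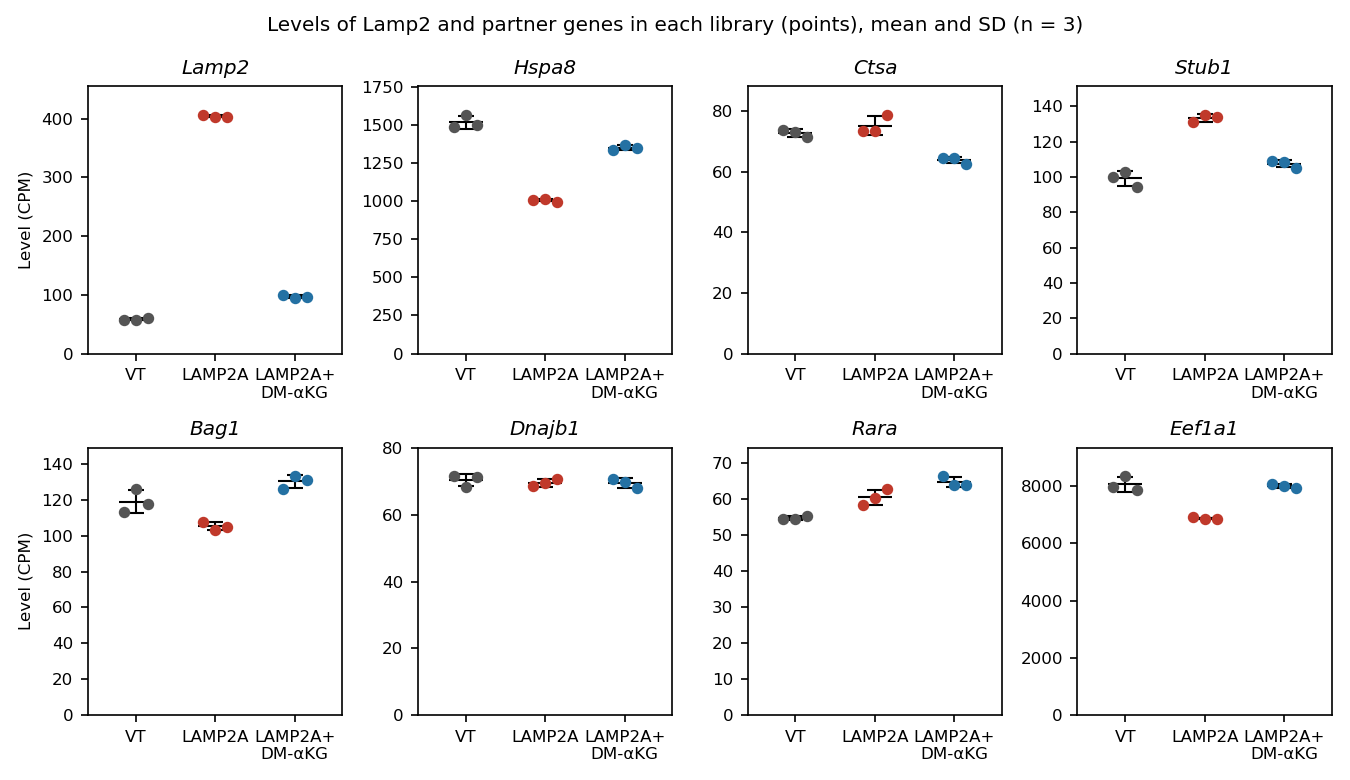
Level of each of the 8 genes in the 9 libraries, in TMM-scaled CPM, on an axis of its own for each gene. Points are libraries, and the lines give the group mean and SD (n = 3). Lamp2 separates the 3 groups, at means of 58.1, 404 and 97.2 CPM in VT, LAMP2A and LAMP2A+DM-αKG, and the groups overlap for Dnajb1.

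Changes were common in these cells, and the counts of members called are read against that. In LAMP2A against VT, 6 of the 8 genes were called, where 85.1% of all tested genes were: Lamp2, Stub1 and Rara were higher (43% of all genes were) and Hspa8, Bag1 and Eef1a1 were lower (42.1%), while Ctsa and Dnajb1 were not called. In LAMP2A+DM-αKG against LAMP2A, 7 of 8 were called against 83.2% of all genes. Hspa8, Bag1, Rara and Eef1a1 were higher (41.1% of all genes), Lamp2, Ctsa and Stub1 were lower (42.1%), and Dnajb1 was not called. In LAMP2A+DM-αKG against VT, 6 of 8 were called against 58.7% of all genes, with Lamp2, Stub1, Bag1 and Rara higher (29.3%), Hspa8 and Ctsa lower (29.4%), and Dnajb1 and Eef1a1 not called. Libraries of the 2 groups did not overlap for 6, 7 and 6 of the 8 genes in these comparisons, as for 85%, 85.5% and 61.3% of all genes. With 8 genes, none of these shares sets the members apart from other genes. Each pair of comparisons shares the 3 libraries of 1 group, so the comparisons are not independent of each other. Most of the members' changes were small. Lamp2 alone passed a 2-fold change, in LAMP2A against VT (29.4% of all genes) and in LAMP2A+DM-αKG against LAMP2A (25.7%), and none did in LAMP2A+DM-αKG against VT (6.55%). The median absolute log2 fold change of the 8 genes was 0.20, 0.27 and 0.15 in the 3 comparisons in that order, and 0.54, 0.47 and 0.21 over all tested genes.

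**Figure D2:**
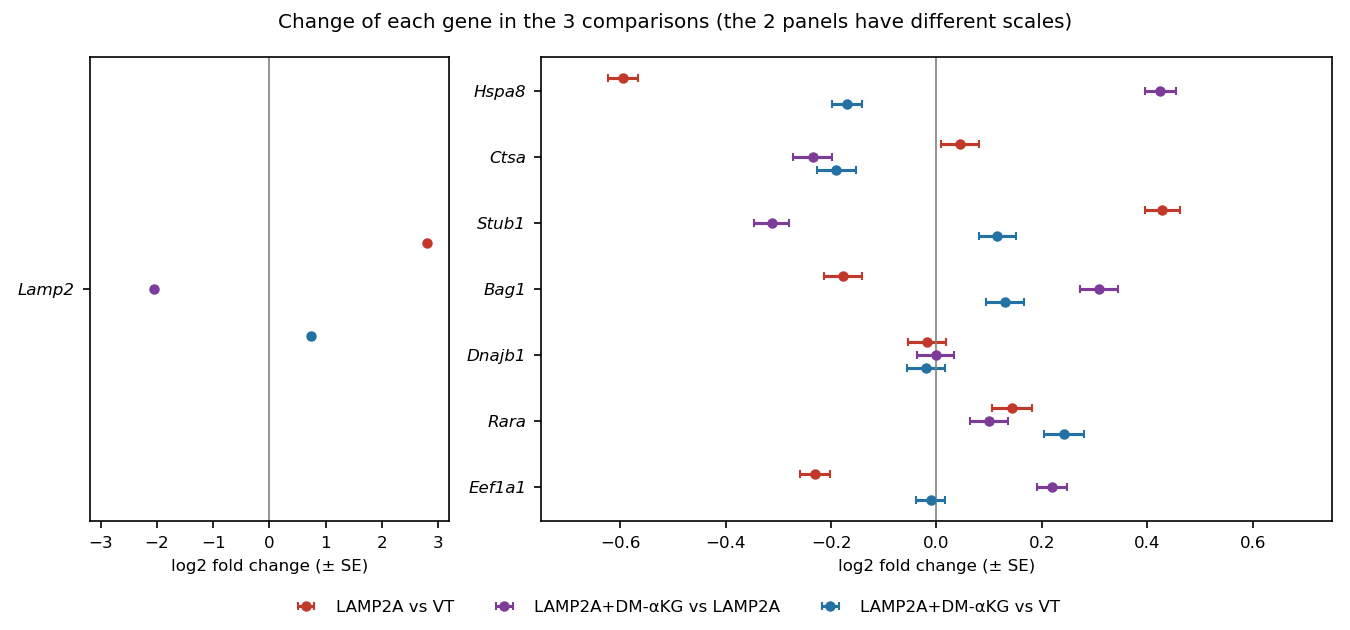
Log2 fold change of the 8 genes in the 3 comparisons, with bars of 1 standard error on either side (smaller than the point for Lamp2). Lamp2, in a panel with a wider scale, lies furthest from 0, at 2.80 in LAMP2A over VT and -2.06 with DM-αKG, and the bars of Dnajb1 span 0 in each comparison.

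Ctsa (chr2:164832873-164841032, plus strand), the lysosomal protease that cleaves LAMP2A, did not follow Lamp2. Its levels were 73.9, 73.1 and 71.5 CPM in VT, 73.5, 73.4 and 78.8 CPM in LAMP2A, and 64.5, 64.4 and 62.7 CPM in LAMP2A+DM-αKG. The VT and LAMP2A libraries overlapped, with LAMP2A replicate 3 above the rest, and the DM-αKG libraries were below all others. The log2 fold change in LAMP2A over VT was 0.05 (SE 0.036, adjusted p = 0.243). With DM-αKG, Ctsa fell by 0.24 on the log2 scale relative to LAMP2A (SE 0.037, adjusted p = 5.34e-07) and by 0.19 relative to VT (SE 0.038, adjusted p = 5.28e-05). Part of Ctsa's exons overlaps Pltp and Neurl2 on the opposite strand (13.5% and 8.82% of its exonic bases), and the sources used here do not give the strand setting of the counting, so reads from these stretches cannot be assigned to 1 gene. Pltp was at 32.6 ± 1.83 CPM in VT, 33.04 ± 0.389 in LAMP2A and 54.1 ± 2.25 in the treated cells (SD, n = 3), and its log2 fold change with DM-αKG was 0.71 (adjusted p = 1.42e-16), opposite in sign to that of Ctsa. The part of these shared stretches in the Ctsa values was not tested.

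Hspa8 (chr9:40800984-40810087, plus strand), which encodes HSC70, was lower where Lamp2 was high. It gave 1488, 1568 and 1501 CPM in VT, 1007, 1013 and 997 CPM in LAMP2A, and 1334, 1367 and 1349 CPM in LAMP2A+DM-αKG. The 3 groups did not overlap, and the DM-αKG libraries lay between the others, nearer to VT. The log2 fold change was -0.59 in LAMP2A over VT (SE 0.029, adjusted p = 6.93e-20), 0.42 with DM-αKG (SE 0.029, adjusted p = 1.27e-15) and -0.17 in LAMP2A+DM-αKG over VT (SE 0.029, adjusted p = 4.84e-06). Hspa8 stood at place 29 or 30 of all genes by CPM in VT and between 68 and 70 in LAMP2A. By sequence, 6 other annotated genes, 5 of them pseudogenes, hold a stretch of at least 200 bases with at least 95% identity to Hspa8, and none of them is listed in the count table.

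The 3 co-chaperones of HSC70 differed from one another. Stub1 (chr17:25830505-25833404, minus strand) encodes CHIP, a ubiquitin ligase that marks clients of HSC70 and HSP90. Its levels were 100.03, 102.9 and 94.6 CPM in VT, 131.1, 135.3 and 133.9 CPM in LAMP2A, and 108.9, 108.5 and 105.1 CPM in LAMP2A+DM-αKG. The 3 groups did not overlap. Stub1 rose by 0.43 on the log2 scale in LAMP2A over VT (SE 0.034, adjusted p = 7.70e-14), was 0.31 lower with DM-αKG (a log2 fold change of -0.31, SE 0.034, adjusted p = 1.97e-10), and was 0.12 higher in LAMP2A+DM-αKG than in VT (SE 0.035, adjusted p = 0.00474). Stub1 shares 35.6% of its exonic bases with Jmjd8 on the opposite strand, so reads from that stretch cannot be told apart without the strand setting. Jmjd8 was at 16.1 ± 1.16 CPM in VT, 10.8 ± 0.690 CPM in LAMP2A and 12.3 ± 0.444 CPM in LAMP2A+DM-αKG (SD, n = 3), with a log2 fold change of -0.57 in LAMP2A over VT.

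Bag1 (chr4:40936398-40948294, minus strand) encodes a nucleotide exchange factor that releases clients from HSC70 and links it to the proteasome. It stood at 113.3, 126.2 and 117.6 CPM in VT, 107.8, 103.4 and 104.6 CPM in LAMP2A, and 126.3, 133.2 and 131.3 CPM in LAMP2A+DM-αKG. The groups did not overlap, although VT replicate 2 came just below the lowest library of the treated cells, and the order of the groups was the reverse of that of Stub1 for LAMP2A against VT. Bag1 fell by 0.18 on the log2 scale in LAMP2A relative to VT (SE 0.036, adjusted p = 3.25e-05), and was higher with DM-αKG by 0.31 (SE 0.036, adjusted p = 1.21e-09). In LAMP2A+DM-αKG it was 0.13 above VT (SE 0.036, adjusted p = 0.00223).

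Dnajb1 (chr8:83608193-83612653, plus strand) encodes HSP40, a J-domain protein that stimulates the ATPase of HSC70. Its 9 libraries ran from 68.0 to 71.7 CPM, with 71.7, 68.6 and 71.5 CPM in VT, 68.6, 69.6 and 70.9 CPM in LAMP2A, and 70.9, 70.0 and 68.0 CPM in LAMP2A+DM-αKG. The 3 groups overlapped, and no difference was detected. The adjusted p was 0.634 in LAMP2A against VT, 0.966 with DM-αKG and 0.656 in LAMP2A+DM-αKG against VT, and 2 standard errors on either side of the log2 fold change ran from -0.09 to 0.05, from -0.07 to 0.07 and from -0.09 to 0.05.

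Rara (chr11:98927818-98974942, plus strand), the nuclear receptor that restrains chaperone-mediated autophagy, was higher in LAMP2A than in VT and higher again with DM-αKG. Its levels were 54.3, 54.4 and 55.3 CPM in VT, 58.4, 60.2 and 62.7 CPM in LAMP2A, and 66.3, 63.9 and 63.9 CPM in LAMP2A+DM-αKG. The groups did not overlap. Rara rose by 0.14 on the log2 scale in LAMP2A over VT (SE 0.038, adjusted p = 8.37e-04) and stood 0.24 above VT with DM-αKG (SE 0.038, adjusted p = 1.60e-06). The step from LAMP2A to LAMP2A+DM-αKG was 0.10 (SE 0.037, adjusted p = 0.0138). That step was not called without LAMP2A replicate 1 (0.08, adjusted p = 0.102), without LAMP2A+DM-αKG replicate 1 (0.08, adjusted p = 0.0657) or with DESeq2 in place of edgeR (0.09, adjusted p = 0.0756). The authors' deposited comparison, also made with DESeq2, did call the step (0.10, adjusted p = 0.0254).

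Eef1a1 (chr9:78478449-78489151, minus strand), the translation elongation factor with a second role at the lysosomal LAMP2A complex, held the highest count of any gene in all 9 libraries. It took from 0.783 to 0.826% of the counts in VT, from 0.686 to 0.693% in LAMP2A and from 0.797 to 0.811% in LAMP2A+DM-αKG. In CPM it stood at 7983, 8351 and 7858 for VT, 6908, 6851 and 6861 for LAMP2A, and 8062, 8006 and 7936 in the treated cells. The LAMP2A libraries were below all others, and the VT and LAMP2A+DM-αKG libraries overlapped. Eef1a1 fell by 0.23 on the log2 scale in LAMP2A relative to VT (SE 0.028, adjusted p = 3.51e-09) and was 0.22 higher with DM-αKG (SE 0.028, adjusted p = 1.13e-08). LAMP2A+DM-αKG differed from VT by -0.01 (SE 0.028, adjusted p = 0.756), with 2 standard errors running from -0.07 to 0.05. Reads of Eef1a1 may also match 9 pseudogenes of at least 95% identity over at least 200 bases, of which Gm6548 is in the count table, at a mean of 24.8 CPM.

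Ratios between members within a library do not depend on the scaling of that library, and 5 ratios were compared across the 3 groups. The ratio of Bag1 to Stub1 sets the exchange factor against the ubiquitin ligase, both of which bind HSC70. It was 1.20 ± 0.059 in VT, 0.789 ± 0.030 in LAMP2A and 1.21 ± 0.047 in the treated cells (SD, n = 3). Bag1 thus had more counts than Stub1 in VT and in LAMP2A+DM-αKG and fewer in LAMP2A. These counts are not scaled by exon length. Per kilobase of exon, Bag1 stayed above Stub1 in LAMP2A too (78.0 against 58.2 CPM per kilobase). The exons that Stub1 shares with Jmjd8 also enter this ratio. The log2 difference in the ratio was -0.60 in LAMP2A from VT and 0.62 with DM-αKG, and VT and LAMP2A+DM-αKG overlapped (0.01, exact permutation p = 0.6, two-sided). The ratio of Hspa8 to Lamp2 was 26.1 ± 1.28 in VT, 2.49 ± 0.023 in LAMP2A and 13.9 ± 0.453 in the treated cells. Hspa8 thus had more counts than Lamp2 in all 9 libraries, and the ratio was 10.5-fold lower in LAMP2A than in VT. Between these groups, Lamp2 was 6.95-fold higher and Hspa8 1.51-fold lower in LAMP2A. The Lamp2 counts hold all its spliced forms, so the ratio does not measure chaperone against receptor. Hspa8 to Dnajb1 went from 21.5 ± 1.15 in VT to 14.4 ± 0.320 in LAMP2A and 19.4 ± 0.531 in LAMP2A+DM-αKG. Lamp2 was also set against Lamp1, the other abundant lysosomal membrane glycoprotein of its family. Lamp2 to Lamp1 was 0.132, 0.581 and 0.215 in VT, LAMP2A and LAMP2A+DM-αKG. Rara to Rarg, the receptor of the same family with the higher count in VT, was 0.277 ± 0.012 in VT, 1.17 ± 0.025 in LAMP2A and 0.445 ± 0.014 in the treated cells. Of these 15 comparisons, 14 had groups that did not overlap. Their exact permutation p was 0.1, two-sided, the smallest that 3 against 3 libraries allow, and 0.107 after Benjamini-Hochberg adjustment over the 15. For single genes, the groups did not overlap in 85%, 85.5% and 61.3% of all genes, in the order of comparisons given above. That share was not computed for ratios of other gene pairs. Lamp2, in the ratios with Hspa8 and Lamp1, was overexpressed by design. In LAMP2A over VT, the log2 fold change was -1.93 for Rarg and 0.14 for Rara.

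**Figure D3:**
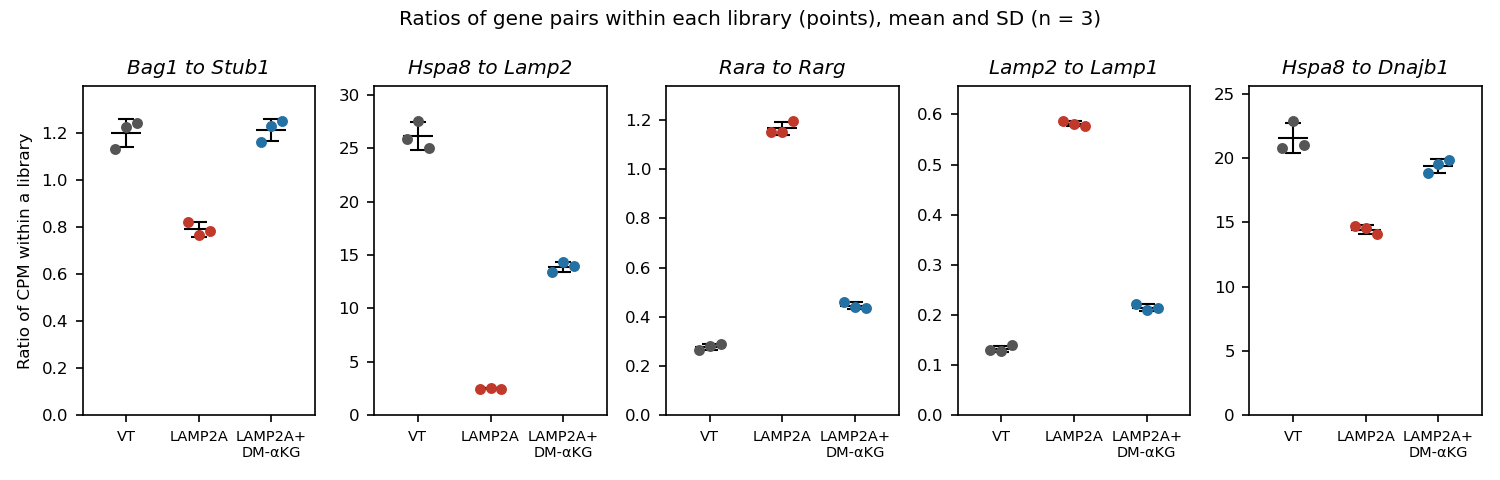
Ratio of CPM between pairs of genes in each library, on linear axes from 0, by group, with the group mean and SD (n = 3). Bag1 to Stub1 lies below 1 in the LAMP2A libraries alone (mean 0.789), and Hspa8 to Lamp2 drops from a mean of 26.1 in VT to 2.49 in LAMP2A. The ratios are not scaled by exon length.

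Levels of different genes were compared per length of their exons, as CPM per kilobase (RPKM, from exons of coding transcripts in GENCODE M21). In VT the order from high to low was Eef1a1 (3982), Hspa8 (595), Bag1 (88.2), Stub1 (43.2), Dnajb1 (22.0), Ctsa (19.8), Rara (12.8) and Lamp2 (11.5 RPKM), and no neighbours overlapped. In LAMP2A, Lamp2 moved from the last to the third place at 80.2 RPKM, just above Bag1 (78.0) and Stub1 (58.2), and Dnajb1 (21.8) and Ctsa (20.5) overlapped. In LAMP2A+DM-αKG, Lamp2 (19.3) stood between Dnajb1 (21.7) and Ctsa (17.4 RPKM). These places hold for a Lamp2 length of 5039 bases, the union of its exons. With the 1769 bases of the LAMP2A transcript, a length chosen after seeing the data, Lamp2 came to 32.9 ± 0.926 RPKM in VT, 229 ± 1.27 in LAMP2A and 54.9 ± 1.13 in the treated cells. Lamp2 then kept the third place in LAMP2A. In VT it was not last but between Stub1 (43.2) and Dnajb1 (22.0). In the treated cells it stood between Bag1 (96.6) and Stub1 (46.9 RPKM).

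Genes with the pattern most like that of each member were found by the root mean square difference in log2 CPM over the 9 libraries, each gene centred on its own mean, among 10346 genes of at least 5 CPM. Lamp2 had few near neighbours. Only 5 genes lay within 0.1 of Lamp2 on the log2 scale and 92 within 0.25, whereas between 654 (Rara) and 1610 (Eef1a1) genes lay within 0.1 of each other member. The distance is not scaled to the size of a gene's change, and Lamp2 was overexpressed by design. These counts of neighbours therefore cannot be compared between Lamp2 and members with small changes. The nearest to Lamp2 was Boc, a cell surface co-receptor of Hedgehog signalling, at a distance of 0.055 and with 7.90, 54.3 and 12.4 CPM in VT, LAMP2A and LAMP2A+DM-αKG. Tdrd7 (0.088), Phldb2 (0.092), Olfml2b (0.094) and Erap1 (0.095) followed. In the same order of groups, Tdrd7 was at 2.87, 20.2 and 5.13 CPM, Olfml2b at 1.67, 12.5 and 3.18, and Erap1 at 2.33, 17.3 and 4.22. Tdrd7, Olfml2b and Erap1 passed the mean of 5 CPM only through the LAMP2A libraries. Eef1a1 lay nearest to Hsp90ab1, the constitutive cytosolic HSP90 (0.017), and to Rnf7 (0.021). Ftl1, the ferritin light chain, lay at a distance of 0.031 from Bag1. Stub1 lay nearest to Chmp4b, a subunit of the ESCRT-III complex (0.016), and Vps72 (0.018), and Hspa8 to Armc8 (0.021) and Wdr12 (0.024). The nearest to Ctsa were Fam32a (0.028) and E2f3 (0.035), to Dnajb1 Hipk1 (0.027) and Col4a3bp (0.027), and to Rara Cnpy3 (0.033) and Afg3l1 (0.035).

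The 6 lists of further genes of the pathway hold 70 genes, of which 67 were tested. In LAMP2A against VT, 29 were higher and 32 lower (91.0% called, against 85.1% of all genes), with a median log2 fold change of -0.04 against 0.01 over all genes. With DM-αKG, 37 were higher and 27 lower (95.5%, against 83.2%), and in LAMP2A+DM-αKG against VT 23 were higher and 18 lower (61.2%, against 58.7%). Of the LAMP family, Lamp1 rose with Lamp2, from 440 ± 8.14 CPM in VT to 696 ± 2.59 in LAMP2A (log2 fold change 0.66, adjusted p = 2.07e-21), and was at 453 ± 4.25 CPM with DM-αKG (0.04 over VT, adjusted p = 0.216). Cd68, the macrophage-associated member of the family, fell by 1.54 on the log2 scale in LAMP2A (25.2 ± 1.71 against 8.66 ± 0.639 CPM, adjusted p = 1.61e-21). At 12.9 ± 0.374 CPM in the treated cells, Cd68 was also lower than in VT, with a log2 fold change of -0.97 (adjusted p = 2.75e-15). Lamp3 and Lamp5 did not have enough counts to test.

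Among 28 chaperones and co-chaperones of HSC70 and HSP90, 11 were higher and 15 lower in LAMP2A than in VT, 16 higher and 11 lower with DM-αKG, and 8 higher and 10 lower in LAMP2A+DM-αKG than in VT. The shares called were 92.9%, 96.4% and 64.3%, near the 85.1%, 83.2% and 58.7% of all genes, and the median log2 fold changes were -0.20, 0.12 and -0.02. Hsp90aa1, the inducible cytosolic HSP90, was at 3421 ± 127 CPM in VT, 1605 ± 21.2 in LAMP2A and 3487 ± 88.3 in the treated cells. Bag3, the co-chaperone that directs clients of HSC70 to macroautophagy, was at 23.0 ± 0.863, 75.3 ± 2.83 and 33.2 ± 0.126 CPM. Its log2 fold change was 1.71 in LAMP2A over VT (adjusted p = 3.29e-28) and -1.18 with DM-αKG, each opposite in sign to that of Bag1. In LAMP2A+DM-αKG against VT both were higher, Bag3 by 0.53 (adjusted p = 3.07e-11) and Bag1 by 0.13 on the log2 scale. Hspa2, a further HSP70, went from 4.88 ± 0.328 CPM in VT to 23.7 ± 0.346 in LAMP2A and 4.97 ± 0.040 with DM-αKG. Of the 5 other genes of elongation factor 1, Eef1a2, Eef1b2, Eef1d and Eef1e1 were lower in LAMP2A than in VT (42.1% of all genes were) and Eef1g was not called. All 5 were higher with DM-αKG (41.1% of all genes), measured against the same LAMP2A libraries. Eef1d alone was called in LAMP2A+DM-αKG against VT (58.7% of all genes), with a log2 fold change of -0.14. The list holds too few genes to set these shares apart from those of all genes. Eef1e1 stood at 88.3 ± 2.96, 55.7 ± 1.25 and 85.1 ± 1.40 CPM. Eef1a2 was near the floor, at 0.487 ± 0.135, 0.142 ± 0.045 and 0.349 ± 0.070 CPM.

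Of 11 regulators of the pathway at the lysosome, mostly kinases, phosphatases and GTPases, 6 were higher in LAMP2A (Akt1, Phlpp1, Phlpp2, Mapkap1, Rac1 and Rab11a) and 4 lower (Mtor, Rictor, Mlst8 and Gfap). With DM-αKG 4 were higher and 6 lower, and in LAMP2A+DM-αKG against VT 4 were higher and 1 lower. The shares called were 90.9%, 90.9% and 45.5%, against 85.1%, 83.2% and 58.7% of all genes. Akt1, which holds the pathway back, was at 46.6 ± 3.19 CPM in VT, 166 ± 1.07 in LAMP2A and 54.1 ± 0.580 in the treated cells. Phlpp2, a phosphatase of Akt, was at 13.6 ± 1.54, 35.4 ± 0.725 and 17.2 ± 0.630 CPM, and Rab11a at 68.5 ± 3.38, 114 ± 0.707 and 72.8 ± 1.63 CPM. Gfap was at a low level, 1.24 ± 0.148, 0.787 ± 0.203 and 1.64 ± 0.382 CPM. Both receptors of Rara's family were called in all 3 comparisons. Rarg stood at 198 ± 7.16, 51.8 ± 1.03 and 145 ± 1.55 CPM, a log2 fold change of -1.93 in LAMP2A over VT (adjusted p = 6.29e-33), and Rarb at 0.619 ± 0.152, 10.2 ± 0.402 and 0.976 ± 0.193 CPM, a log2 fold change of 4.05 (adjusted p = 5.27e-24). Of the 8 transcriptional regulators, 4 were higher (Nfatc1, Rxra, Rarb and Hsf1) and 3 lower (Tfeb, Ncor1 and Rarg) in LAMP2A than in VT. With DM-αKG 4 were higher and 3 lower, and in LAMP2A+DM-αKG against VT 4 were higher and 3 lower. In each comparison 87.5% were called, where 85.1%, 83.2% and 58.7% of all genes were. With 8 genes, the list is too short to set these shares apart from those of all genes. Nfatc1 was at 1.31 ± 0.106, 10.5 ± 0.937 and 2.20 ± 0.118 CPM and Tfeb, the regulator of lysosomal genes, at 60.8 ± 3.90, 9.88 ± 0.616 and 37.2 ± 1.28 CPM.

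Transcripts of 13 proteins reported as substrates of the pathway were tested, and 7 were higher and 5 lower (Idh1, Gapdh, Pkm, Hk2 and Chek1) in LAMP2A than in VT. With DM-αKG 7 were higher and 6 lower, and against VT 7 were higher and 2 lower (Rcan1 and Nfkbia). The shares called were 92.3%, 100% and 69.2%, where 85.1%, 83.2% and 58.7% of all genes were, and the median log2 fold changes were 0.16, 0.36 and 0.19. Plin2, a coat protein of lipid droplets, rose from 25.7 ± 0.554 CPM in VT to 198 ± 4.28 in LAMP2A and was at 38.1 ± 1.58 with DM-αKG. Hk2, a hexokinase of glycolysis, was at 732 ± 17.1, 299.6 ± 2.55 and 744 ± 9.75 CPM. In LAMP2A+DM-αKG against VT, Lrrk2 showed the largest change of the 67 tested pathway genes, with a log2 fold change of 2.24 (SE 0.317, adjusted p = 2.53e-07) from a low level of 0.226 ± 0.105 CPM in VT, 4.31 ± 0.406 in LAMP2A and 1.10 ± 0.052 in the treated cells. These are RNA levels, and substrates of the pathway are degraded as proteins, which were not measured here.

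**Figure D4:**
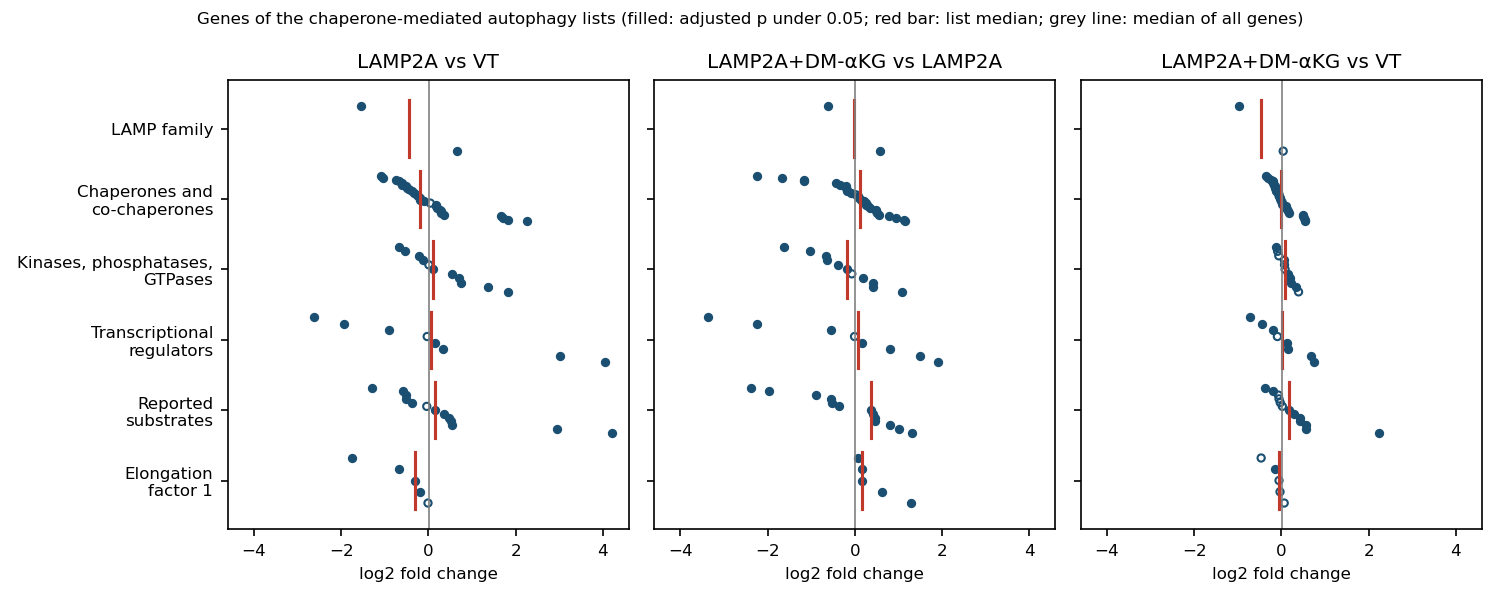
Log2 fold change of each tested pathway gene in the 3 comparisons, by list. Filled points passed an adjusted p under 0.05, open points did not, red bars are list medians and the grey line is the median of all tested genes. Each list holds genes on both sides of 0 in LAMP2A over VT except the elongation factor 1 genes, of which 4 of 5 are called lower.

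Markers of cell type moved between the same groups. All 10 ES cell markers were above 1 CPM in each group, and their summed level ran from 8513 to 8889 CPM in VT, from 1989 to 1995 in LAMP2A and from 7250.0 to 7282 in the treated cells, with none at 0. The summed level of 10 markers of extraembryonic endoderm was 124 to 130 CPM across VT, 1184 to 1197 CPM across LAMP2A and 159 to 167 CPM across the treated libraries, with 8, 10 and 8 of them above 1 CPM and no Afp count in any VT library. For 12 fibroblast and feeder markers the sum ran from 37.3 to 39.2, 296 to 305 and 44.8 to 48.1 CPM, with 3, 10 and 3 above 1 CPM, no count of Lum or Fap in any VT library and none of Fap in any LAMP2A library. The sums hide markers that went the other way. Sox7 was lower in LAMP2A than in VT (log2 fold change -0.45) and higher with DM-αKG (1.03). The other 9 endoderm markers were higher and then lower. Thy1 was lower in LAMP2A than in VT (-0.47), where the other 9 fibroblast and feeder markers tested were higher. Of all genes, 43% were higher and 42.1% lower in LAMP2A against VT, and 41.1% and 42.1% with DM-αKG. The part of these shifts in the values of Lamp2 and its partners was not tested, and in bulk RNA fewer cells of a type and less RNA per cell cannot be told apart.

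The motif TCACGTG, known as the binding site of TFEB and its relatives, was searched on both strands in the RefSeq promoter windows of GRCm38.p6, which run from 250 bases before to 50 after each start. The table gave 12 windows for 7 of the 8 genes, some with several starts. The motif was in 4 of the 12 windows, against 3.77% of all 32851 windows: in 1 of 2 windows of Ctsa, in the 1 window of Stub1 and in 2 of 4 windows of Rara, which overlap and hold the same match. A heat shock motif (GAANNTTC or TTCNNGAA) was searched likewise and was in 1 of the 12 windows, that of Stub1, against 15.1% of all windows. The stretches are printed because Tfeb itself differed among the 3 groups. They lie at chr2:164833757-164833786 (plus strand) for Ctsa, chr17:25832972-25833001 (minus strand) for Stub1 and chr11:98937694-98937723 (plus strand) for Rara, with the motif or its reverse complement CACGTGA in capitals.
Ctsa: ctgTCACGTGAtgcagatgcTCACGTGAcc
Stub1: ctccgcctttgcTCACGTGtccccatgcca
Rara: agtttcagcctctgCACGTGActcgccatg
Ctsa holds overlapping matches on the 2 strands, at 2 places. The TCACGTG letters were not in the windows of Lamp2, Bag1, Dnajb1 and Eef1a1. In LAMP2A over VT, where Tfeb was lower, Ctsa was not called and Stub1 and Rara were higher, as given above. With DM-αKG, Tfeb was higher (log2 fold change 1.91), Ctsa and Stub1 were lower and Rara was higher. In LAMP2A+DM-αKG against VT, Tfeb was lower (-0.71), Ctsa was lower, and Stub1 and Rara were higher. The activity of TFEB was not measured, and a link between Tfeb and these genes was not tested. A match is a description of the window and not a measured site.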

How the data were processed

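RNA-seq counts per gene were deposited for 9 libraries, 3 in each of 3 groups. Per the submitters' processing notes the tools were STAR 2.7.1, HTSeq 0.11.2 and DESeq2 with the mm10 build, and the annotation, strand setting and treatment of multiply mapped reads are not stated in the labels or headers. The authors also deposited 2 comparison tables, of LAMP2A against VT and of the treated cells against LAMP2A, with a mean normalised signal, log2 fold changes, a test score and p-values per gene. In these the authors' deposited sign and call at 0.05 were those of the fit used here for 8 of 8 members in each table. Libraries held 23636074 to 32809875 counts.

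Counts were tested with edgeR 4.0.16 in R 4.3.3 (filterByExpr, TMM, robust quasi-likelihood fit of 1 model over 9 libraries, 6 residual degrees of freedom) with Benjamini-Hochberg adjustment over 14513 genes. Standard errors are the log2 fold change divided by the square root of F. The model gives each gene 1 spread for all 3 groups. Between pairs of VT libraries, the chi-square per degree of freedom of the counts was 2.97 to 5.66. Within the other groups it was 1.19 to 2.36. The part of this unequal spread in the calls against VT was not tested. Ratios were compared with exact permutation tests in scipy 1.17.1. Exon lengths, overlaps and near copies (blastn 2.17.0) came from GENCODE M21 on GRCm38. The fit was also run on simulated counts in which few genes changed, unlike in these data. That run therefore does not check the scaling where most genes change. Alternatives were other scaling, no filter, a replicate block, 2 groups only, leaving out each library and DESeq2 1.42.0.

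The members, gene lists and tests were chosen with earlier results of these data known. Named were all members, in each list the 3 genes with the smallest p in LAMP2A against VT, the 3 with the largest change in LAMP2A+DM-αKG against VT, the genes of the ratios, the nearest genes by pattern and any list count of 5 or fewer. Jmjd8, Pltp, Neurl2 and Gm6548 are named for sharing sequence. A gene that the rule names is not reported here.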

Additional observations from a re-analysis of the deposited data

How the results depend on the processing

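Counts of called members and pathway genes stayed within 1.5 times of the reported ones under all 15 alternatives. Of 360 log2 fold changes of members, 348 kept direction and call, and 88 of 90 ratio comparisons kept direction. The 3 that were no longer called were all for Rara in LAMP2A+DM-αKG against LAMP2A, as given with its values. Reversals touched 3 differences that were not called. Dnajb1 with DM-αKG was 0.0024 with library totals only, 0.0021 with no low-count filter, and from -0.012 to 0.019 leaving out each library in turn. Eef1a1 in LAMP2A+DM-αKG against VT was 0.0046 with library totals only and from -0.029 to 0.017 leaving out each library. The log2 ratio of Bag1 to Stub1 in LAMP2A+DM-αKG against VT ran from -0.027 to 0.046 leaving out each library.

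No pairing by replicate number was seen in the counts. Deviations of same-numbered libraries correlated between -0.027 and 0.012 over 9 pairs, and those of differently numbered libraries between -0.020 and 0.034 over 18 pairs. Such correlations cannot show whether same-numbered libraries were handled together. With the replicate number as a block, 3 members were higher and 3 lower in LAMP2A against VT, 4 and 3 with DM-αKG, and 4 and 2 in LAMP2A+DM-αKG against VT, as without it, and no member's log2 fold change moved by more than 0.0012.

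The part of depth in the calls was not tested, and the lowest member level in any library was 54.3 CPM. With 3 libraries a group, the exact tests of ratios cannot give a p below 0.1.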
